A study of Pleurotus ostreatus with 32 samples.

Results

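Gene expression in the lamellae of mature fruiting bodies of the oyster mushroom Pleurotus ostreatus was compared with that in the mature cap, using RNA sequencing counts of 3 lamellae libraries and 3 cap libraries out of 32 libraries in the series. The libraries were chosen by their tissue labels alone, and all genes in the files entered the comparison. Both tissues came from fruiting bodies of the dikaryotic strain N001, grown on bagged spawn at 18 to 19 °C with 8 h of light a day, and no other treatment or genotype separates them. Per the labels' protocols each replicate pooled tissue of 3 to 8 fruiting bodies; no source used here says whether a lamellae pool and a cap pool came from the same bodies. The other 26 libraries cover mycelium, stage 1 primordia, caps and stipes of stage 3 primordia and of young fruiting bodies, and the stipe, skin and dedifferentiated cap of mature fruiting bodies.

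Lamellae are the gills on the underside of the cap. Their surface carries the hymenium, the layer of basidia in which the nuclei of the dikaryon fuse, pass through meiosis and give the spores. The flesh of the cap is sterile tissue that holds the gills up. The files give genes as numbers and do not pair them with names, and 0 of 12329 numbers matched an entry of the reference gene list used here, which belongs to another strain's assembly. The labels could therefore not be checked against genes known to mark basidia, and genes are described below by level, size of change and pattern across tissues, with 2 genes named in each direction.

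The lamellae libraries held 20.8, 14.9 and 22.8 M counts (replicates 1 to 3; M, mega) and the cap libraries 14.3, 20.4 and 16.0 M. Levels are given as CPM, counts per mega of the library's TMM-scaled total. At least 1 CPM was reached by 10090, 10047 and 10072 genes in lamellae, against 9956, 9948 and 9963 in cap. Every lamellae library thus had more genes at that level than every cap library (exact permutation test, two-sided, p = 0.1, the smallest that 3 against 3 libraries allow). The 100 most abundant genes held 26.2 ± 1.61% of the counts in lamellae and 32.9 ± 3.43% in cap (SD, n = 3 each; exact permutation p = 0.1), and the 10 most abundant 11.7 ± 0.843% and 12.5 ± 2.28% (p = 0.6). Spearman correlations across genes ran from 0.943 to 0.979 between lamellae libraries and from 0.964 to 0.982 between cap libraries, against 0.807 to 0.877 between a lamellae and a cap library. The median SD of a gene's log2 CPM between replicates was 0.323 in lamellae and 0.304 in cap.

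Cap replicate 1 stood apart from the other cap libraries in genes that are high in lamellae. A list of 97 genes was formed from groups other than the cap: each had at least 10 CPM in every lamellae library and a lamellae mean at least 16-fold above the mean of each of the 9 groups not compared here. These genes summed to 109940, 114250 and 130660 CPM in the lamellae libraries, which is 12.7, 11.8 and 14.4% of their counts. In the cap libraries the same genes summed to 1934, 770 and 856 CPM, or 0.2, 0.0638 and 0.0746% of the counts. Cap replicate 1 was thus 2.51 times cap replicate 2 and 2.26 times cap replicate 3, at 1.63% of the lamellae mean, and it was the highest of the cap libraries in 87 of the 97 genes. The ratio to cap replicate 2 depended on how the list was drawn, at 1.49 for genes chosen at 8-fold and 7.17 for genes chosen at 32-fold. Over all genes tested it was the highest cap library in 28.6%. In the mature stipe the list summed to 2402, 1760 and 926 CPM. Wide spreads between replicates were also seen in young stipe (388, 1398 and 882 CPM) and stage 3 stipe (456, 660 and 1457 CPM). The spread was narrower in mature skin (838, 1057 and 1013 CPM). A spread of this size was thus not particular to the cap. The part of these traces in the lamellae-cap differences was not tested, and results that move without cap replicate 1 are given with and without it. In such bulk samples, fewer cells of a type and less RNA per cell cannot be told apart.

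**Figure D1:**
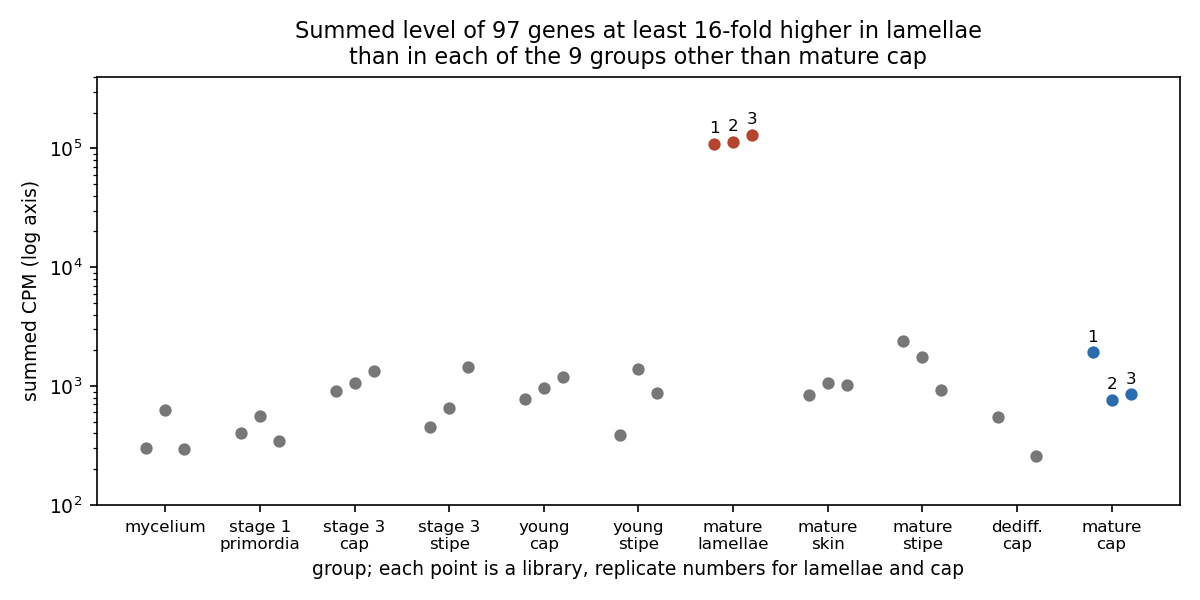
Summed level (CPM, log axis) of 97 genes at least 16-fold higher in mature lamellae than in each of 9 other groups, the mature cap not being used to choose them; each point is a library, with replicate numbers shown for lamellae (red) and cap (blue). The lamellae libraries lie at 109940 to 130660 CPM, and cap replicate 1 lies at 1934 CPM, above cap replicates 2 and 3 at 770 and 856.

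Lamellae and cap differed in a large part of the measured genes. Of 10814 genes tested, 1524 were higher and 1424 lower in lamellae in edgeR's quasi-likelihood test, with a change of 2-fold or more and a Benjamini-Hochberg adjusted p below 0.05, which is 14.1% and 13.2% of the genes and 27.3% in all. The libraries did not overlap in 1470 of the genes called higher and in 1379 of those called lower, while over all genes tested 50.9% had no overlap. The median log2 fold change was 1.83 in the genes called higher, -1.68 in those called lower and 0.0076 over all genes tested. The first 2 medians stayed 1.83 and -1.68 when the 10 and 3 genes with no count in the lower tissue were set to a bound. That bound was what 3 counts over the group allow, and so few genes could hardly move a median. The numbers in each direction depended on the scaling: when libraries were scaled by their size alone, the median over all genes became 0.278, and 2172 genes were higher and 952 lower. Without cap replicate 1 there were 1320 higher and 1429 lower.

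Averaged over the whole series, genes called lower in lamellae tended to have higher levels than genes called higher. When the tested genes were ranked by their mean log2 CPM over all 32 libraries and cut into 4 equal parts, the part with the lowest levels (median 3.44 CPM) had 17.5% of its genes called higher and 9.87% called lower. In the part with the highest levels (median 157 CPM) it was the other way round, with 8.58% called higher and 17.2% called lower. The middle parts lay between, at 16.5% and 13.7% higher and 12.8% lower in each.

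More genes with large changes were higher than lower in lamellae. Of the genes called higher, 858 changed 2- to 4-fold, 288 changed 4- to 8-fold, 130 changed 8- to 16-fold, 157 changed 16- to 64-fold and 91 over 64-fold. Of those called lower the same classes held 934, 339, 99, 43 and 9 genes. Changes of at least 16-fold were thus found for 248 genes that were higher, 2.29% of the genes tested, and for 52 that were lower, 0.481%. The numbers 248 and 52 became 265 and 66 without cap replicate 1, 277 and 32 with library size alone, and 156 and 30 with limma on log2(FPKM + 1), a scale that shrinks the changes of low genes. Of the 248 and 52 genes, 168 and 45 averaged 10 counts or more in each tissue.

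**Figure D2:**
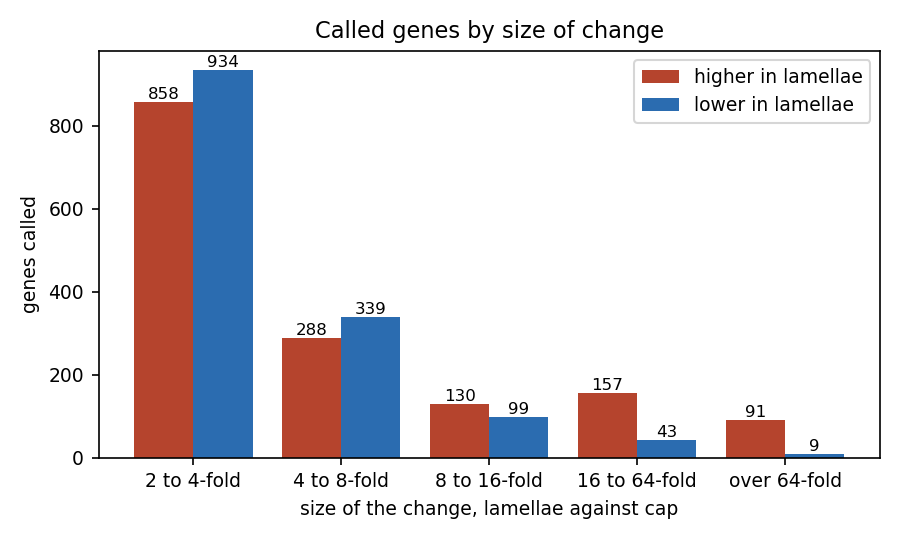
Number of called genes by size of the change between mature lamellae and mature cap; red bars are genes higher in lamellae and blue bars genes lower in lamellae. The classes up to 8-fold hold more genes that were lower (934 and 339, against 858 and 288 that were higher), and the classes above hold more that were higher (91 against 9 over 64-fold).

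**Figure D3:**
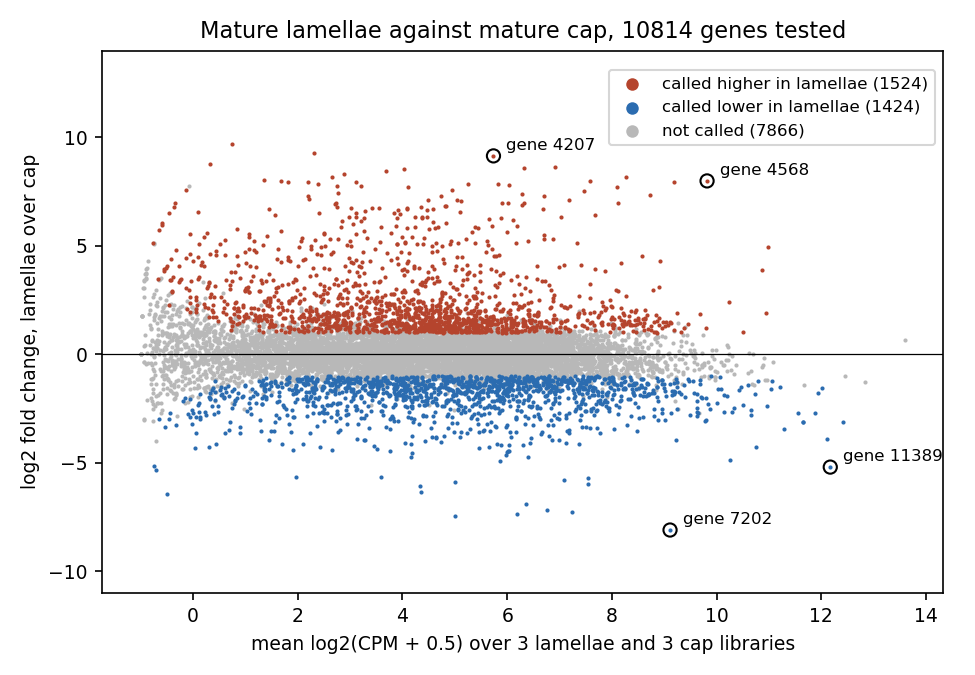
Log2 fold change of lamellae over cap against the mean level of a gene over the 6 libraries; each point is 1 of 10814 genes tested, with called genes in red (1524 higher) and blue (1424 lower) and the 4 named genes circled. Called genes are found at all levels, and the named genes lie at 9.15 and 8.00 above and at -8.10 and -5.20 below the line of no change.

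The called genes carried much of the RNA of each tissue. Genes called higher held 29.7, 31.1 and 33.4% of all counts in the lamellae libraries, against 4.15, 3.95 and 4.38% in the cap libraries. Genes called lower held 12.2, 11.5 and 9.68% in lamellae and 40.8, 43.9 and 43.9% in cap. The genes were chosen for this difference under the TMM scaling, so the shares describe its size only. The counts were concentrated: the 10 most abundant genes of the first set held 9.38, 9.64 and 11.3% of the lamellae libraries, and 47, 46 and 42 genes of that set were enough for 50% of its counts. In cap, the 10 most abundant genes of the second set held 9.62, 13.8 and 11.9% of the libraries, and 53, 37 and 48 genes were enough for 50% of its counts.

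Gene 4568 was the most abundant transcript of the lamellae per gene length, at rank 1 of the 10755 genes with a deposited FPKM (fragments per kilobase of gene and mega of reads), and at rank 1376 in cap. Its mean was 53771 FPKM in lamellae and 210 FPKM in cap. It had 20549, 12450 and 30335 CPM in the lamellae libraries and 213, 17.4 and 17.7 CPM in the cap libraries. The tissues did not overlap, the lowest lamellae library being far above the highest cap library, and cap replicate 1 was well above the other cap libraries. The log2 fold change was 8.00 ± 1.198 (SE; adjusted p = 1.13e-05 in edgeR's test), and 10.23 without cap replicate 1 (adjusted p = 3.66e-06). In the lamellae it made up 2.37, 1.29 and 3.33% of all counts. In the 9 groups not compared its means ran from 23.0 CPM in stage 1 primordia to 165 CPM in stage 3 caps, so the lamellae stood alone among the 11 groups. Its counts were fractions in 2 of the 6 libraries. The origin of such fractions is not stated, and whether some of its reads are shared with a similar gene was not tested.

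Gene 4207 had the largest fold change among genes called higher with no overlap and at least 10 counts on average in both tissues. It had 775, 1636 and 1418 CPM in lamellae and 4.39, 1.54 and 0.788 CPM in cap, with no overlap. The cap values rest on 65, 26 and 11 counts. The log2 fold change was 9.15 ± 1.26 (SE; edgeR, Benjamini-Hochberg adjusted p = 3.45e-06). By FPKM it ranked 35 in lamellae and 8414 in cap. After the lamellae, the mature stipe came next with 14.5 ± 15.7 CPM (SD, n = 3), where the libraries ran from 0.581 to 31.5 CPM and overlapped those of the cap. In the other groups the mean was between 0.445 CPM in young stipes and 3.26 CPM in mycelium.

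Gene 11389 was the counterpart of gene 4568, ranking 1 in cap by FPKM and 44 in lamellae, with means of 2558 FPKM in lamellae and 94121 FPKM in cap. It had 778, 946 and 576 CPM in lamellae and 25124, 32074 and 27437 CPM in cap, with no overlap. The log2 fold change was -5.20 ± 0.72 (SE; edgeR, Benjamini-Hochberg adjusted p = 3.5e-06). Its level in the cap was shared by other tissues: 23114 ± 2407 CPM in mature stipe and 10202 ± 877 CPM in mature skin. It was also high before maturity, at 17803 ± 6636 CPM in young stipe, 11001 ± 4418 CPM in stage 3 stipe and 8502 ± 3607 CPM in stage 1 primordia. Values were lower in young cap (2721 ± 190 CPM) and stage 3 cap (717 ± 375 CPM, SD, n = 3 each). The lamellae libraries lay within the range of the stage 3 caps. Its counts were fractions in 1 of the 6 libraries.

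Gene 7202 had the largest fold change among genes called lower with no overlap and at least 10 counts on average in both tissues. It had 41.2, 42.0 and 20.4 CPM in lamellae and 6441, 9690 and 12336 CPM in cap, with no overlap, and a log2 fold change of -8.10 ± 0.91 (SE; edgeR, Benjamini-Hochberg adjusted p = 1.9e-07). By FPKM it ranked 4077 in lamellae and 11 in cap. Besides the cap it was high in mature stipe (7293 ± 906 CPM) and mature skin (2606 ± 535 CPM). Before maturity it was far lower, at 56.5 ± 31.0 CPM in young cap and 193 ± 39.4 CPM in young stipe (SD, n = 3 each), and the lamellae libraries overlapped those of the young cap. In the dedifferentiated cap it had 8.54 and 28.5 CPM. Its counts were fractions in 4 of the 6 libraries, and whether its reads in part belong to a similar gene was not tested.

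**Figure D4:**
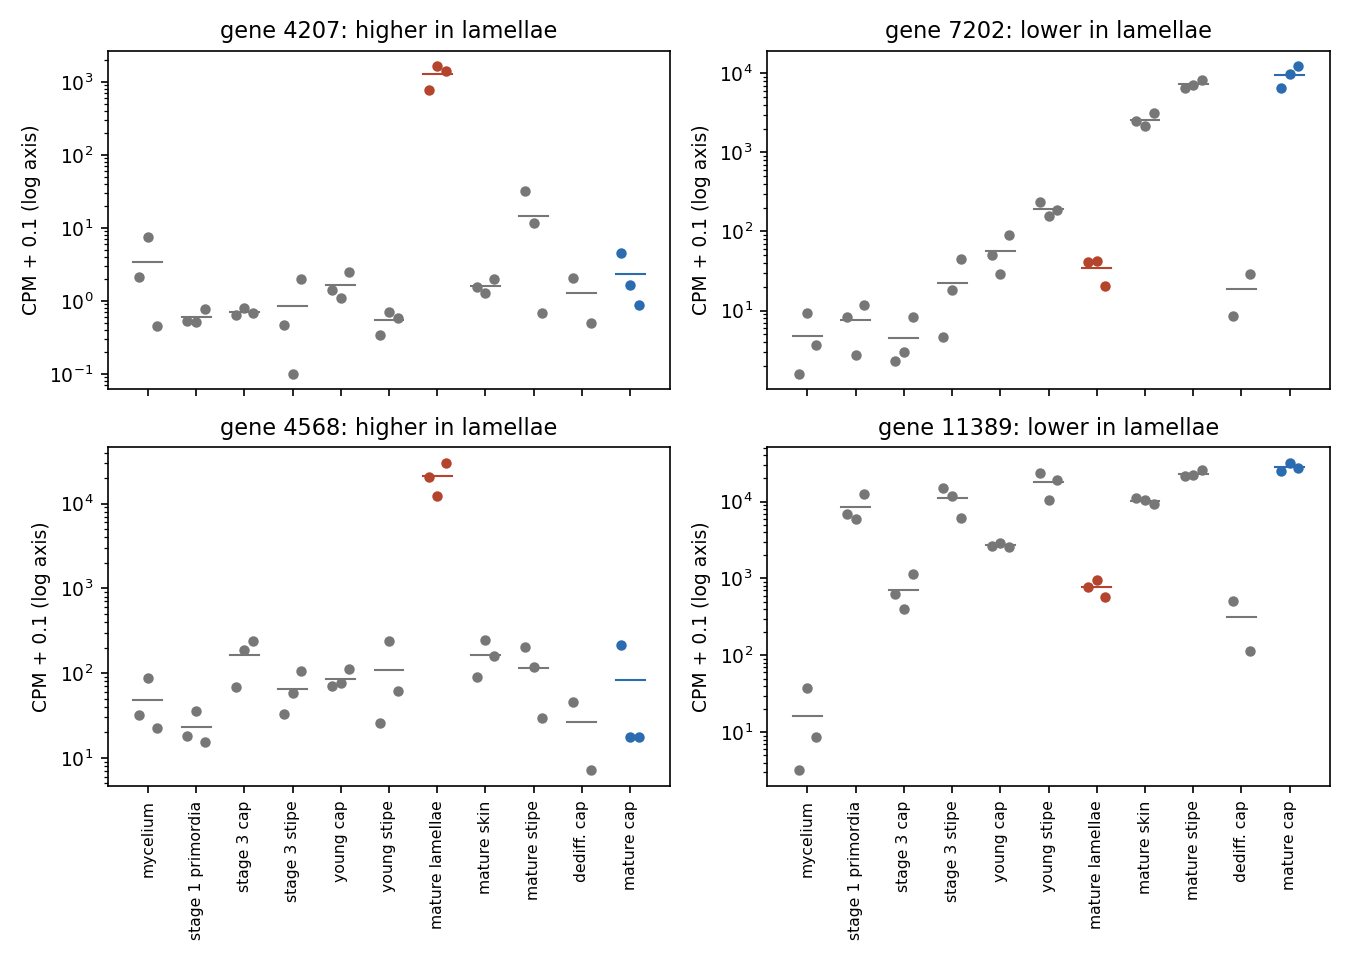
Level of the 4 named genes in every library (CPM + 0.1, log axis) in all 11 groups; points are libraries, short lines are group means, lamellae are red and cap is blue. Genes 4207 and 4568 are high in lamellae alone, with at least 775 and 12450 CPM. Genes 7202 and 11389 are high in mature cap, stipe and skin and lower in lamellae, with at most 42.0 and 946 CPM. Gene 11389 is also high in young stipe, stage 3 stipe and stage 1 primordia.

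Only a few genes were near absent from every library of one tissue while reaching a clear level in every library of the other. With at least 10 CPM in each lamellae library and at most 1 CPM in each cap library, 20 genes were found, and all 20 were called higher. Their lamellae means ran from 11.5 to 96.9 CPM with a median of 34.1 CPM. Of these 20 genes, 9 had a mean of at most 1 CPM in each of the other 9 groups, and 5 reached 10 CPM in at least 1 of them. Cap replicate 1 set this number, which was 46 without it. The opposite pattern, at most 1 CPM in each lamellae library and at least 10 CPM in each cap library, was found for 2 genes, both called lower and both at 10 CPM or more in another group. These cut-offs already demand a large difference without overlap in the same libraries, so the calls add no separate evidence.

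Set beside the other 9 groups, the genes called higher often had their highest mean in the lamellae, and often their lowest mean in mature stipe or cap. The lamellae had the highest mean of all 11 groups in 595 of the 1524 genes, 39.0% of them, while over all genes tested this held for 9.11%. With a margin of at least 2-fold over every other group it held for 323 genes, 21.2% of the set against 3.04% of all genes tested, and with a 4-fold margin for 204 genes. The next groups to hold the highest mean were stage 3 cap in 258 genes (16.9%, against 9.51% of all genes tested), dedifferentiated cap in 240 (15.7% against 16.9%) and mycelium in 174 (11.4% against 21.7%). The lowest mean of these genes lay in mature stipe in 431 (28.3% against 13.7%) and in mature cap in 370 (24.3% against 7.48%). A cap mean at least 2-fold below every other group was found in 41 genes, 2.69% of the set against 0.629% of all genes tested, and this number was 72 without cap replicate 2. The shares given here for lamellae and cap follow in part from how the genes were chosen. A 2-fold margin over every other group already includes the other tissue compared, and 323 of all 329 genes with such a lamellae margin were in the set.

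The genes called lower had their highest mean in mature stipe in 421 of 1424 (29.6%, against 10.3% of all genes tested) and in mature cap in 321 (22.5% against 7.01%). Mycelium was the highest in 281 (19.7% against 21.7%) and dedifferentiated cap in 201 (14.1% against 16.9%). A cap mean at least 2-fold above every other group was found in 6 of them, 0.421% of the set and 0.0832% of all genes tested; leaving out cap replicate 1 gave 10 such genes and leaving out cap replicate 2 gave 16. The lowest mean lay in stage 3 cap in 429 (30.1% against 13.8%) and in lamellae in 347 (24.4% against 7.66%). The shares of lamellae and cap are in part set by the choice of the genes. A lamellae mean at least 2-fold below every other group was found in 62 genes, 4.35% of the set and 0.666% of all genes tested.

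The genes called higher had a median group mean of 5.46 in lamellae and 3.25 in cap (log2(CPM + 0.5)), with 3.38 in mature stipe, 3.81 in mature skin and 4.09 in dedifferentiated cap. In the other groups their medians were 4.05 in mycelium, 4.04 in stage 1 primordia, 4.48 in stage 3 cap, 4.07 in stage 3 stipe, 4.23 in young cap and 3.78 in young stipe. The genes called lower had 4.29 in lamellae and 6.21 in cap, with 6.32 in mature stipe, 5.75 in mature skin and 5.23 in dedifferentiated cap. Their medians were 5.33 in mycelium, 4.83 in stage 1 primordia, 4.22 in stage 3 cap, 4.78 in stage 3 stipe, 4.61 in young cap and 5.03 in young stipe. The stage 3 and young caps were thus nearer to the lamellae than the mycelium and young stipe were. All genes tested stayed between 4.54 and 4.92 in the 11 groups.

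**Figure D5:**
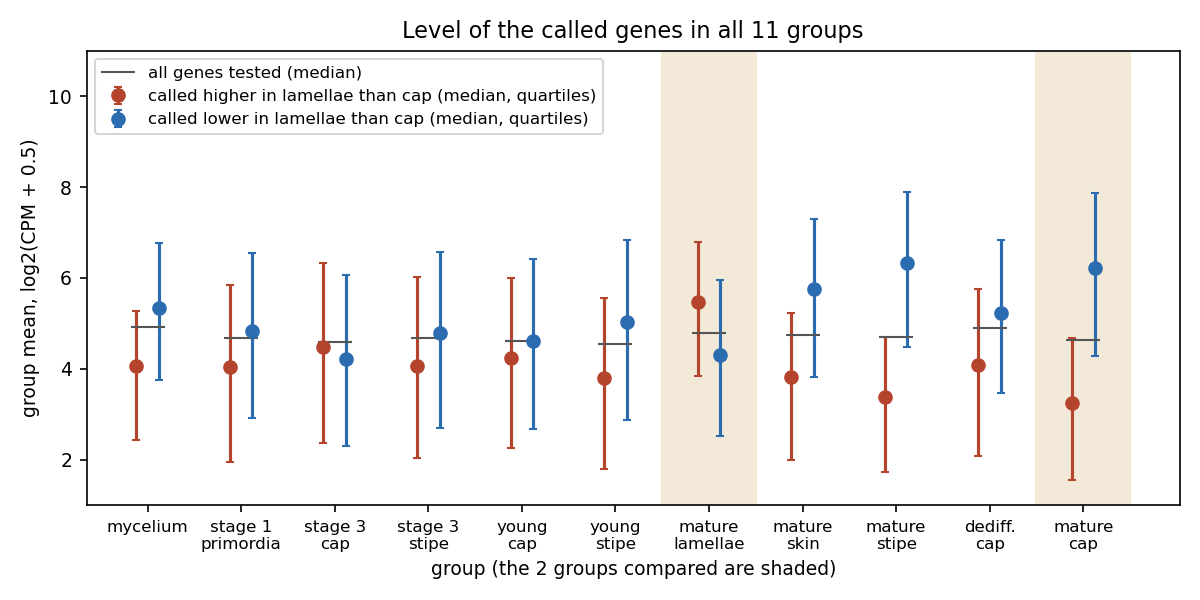
Group mean level, log2(CPM + 0.5), of genes called higher (red) and lower (blue) in lamellae than in cap, as median and quartiles over genes, in all 11 groups; grey dashes are the median of all genes tested, and the compared groups are shaded. Genes called lower have medians of 4.29 in lamellae, 4.22 in stage 3 cap and 4.61 in young cap, below those of mature skin (5.75), stipe (6.32) and cap (6.21).

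For each called gene, the level of another group can be placed on a scale on which the cap is 0 and the lamellae are 1. The mature stipe lay almost at the cap, with a median place of 0.0227 in genes called higher and -0.0375 in genes called lower, and it was nearer to the cap than to the lamellae in 92.7% and 94.2% of them. The mature skin lay part of the way to the lamellae, at 0.221 and 0.32, and was nearer to the cap in 80.7% and 77.0%. The young cap lay at 0.561 in genes called higher, with quartiles of 0.104 and 1.06, and at 0.881 in genes called lower, where it was nearer to the cap in 25.6%. The stage 3 cap lay at 0.69 and 1.05. These places are descriptive, since the genes were chosen for the distance between the ends of the scale.

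A further 4 comparisons in the series use neither the lamellae nor the mature cap libraries, and the called genes were looked up in them. In mature stipe against young stipe, 20.8% of all genes tested were called higher and 13.4% lower. Of the genes called lower in lamellae, 739 (51.9%) were called higher in mature stipe and 34 (2.39%) lower, with a median log2 fold change of 1.16 against 0.103 over all genes tested. Of the genes called higher in lamellae, 135 (8.86%) were called higher in mature stipe and 487 (32%) lower, with a median of -0.599. In both sets, more genes changed in the mature stipe toward the side of the mature cap than toward that of the lamellae.

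In mature skin against mature stipe, 4.35% of all genes tested were called higher in skin and 4.99% lower. Of the genes called higher in lamellae, 189 (12.4%) were called higher in skin and 24 (1.57%) lower, with a median log2 fold change of 0.43. Of those called lower in lamellae, 40 (2.81%) were called higher in skin and 295 (20.7%) lower, with a median of -0.622, and the median of all genes tested was -0.00655.

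Cap and stipe of earlier stages gave smaller numbers in the same directions. In young cap against young stipe, 1.94% of all genes tested were called higher in cap and 1.38% lower. The genes called higher in lamellae held 63 (4.13%) that were higher in young cap and 9 (0.591%) that were lower, and the genes called lower in lamellae held 29 (2.04%) and 96 (6.74%). In stage 3 cap against stage 3 stipe, 2.77% of all genes tested were called higher and 2.69% lower. There the genes called higher in lamellae held 98 (6.43%) and 7 (0.459%), and the genes called lower in lamellae held 27 (1.9%) and 172 (12.1%). Without cap replicate 1, the 9 and 7 genes in the opposite direction became 5 and 4, and without cap replicate 2 the 7 genes became 3.

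Gene length did not set the called genes far apart from the rest. Lengths were derived from the ratio of scaled counts to the deposited FPKM, which was the same in all 6 libraries to within 0.00172 log2 units (median range over 8993 genes). The median was 985 bases for genes called higher, 1039 bases for those called lower and 973 bases for all genes tested, with quartiles of 547 and 1600, 531 and 1590, and 512 and 1560 bases. A length was derived for 91.5, 91.6 and 85.7% of these genes.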

How the data were processed

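The authors deposited expected counts per gene for each library, in part fractional: 95.2% of the values above 0 were whole within a tolerance of 1e-06. They also deposited a table of log2 values, whose name says FPKM, for 10755 of 12329 genes. STAR, featureCounts, R 3.0.2, edgeR 3.4.2 and limma 3.18.13 are named in the submitters' processing notes; no source used here gives the build or annotation. Libraries were made from poly(A) RNA with strand kept and read from 2 ends of 150 bases, per the labels' protocols.

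Counts were rounded and filtered with filterByExpr, which left 10814 genes with at least 99.9977% of the counts of each of the 6 libraries. The counts were scaled by TMM and fitted with edgeR 4.0.16 in R 4.3.3, with a mean for each of 11 groups, 32 libraries in all. The fit was robust quasi-likelihood with 21 residual degrees of freedom, and the biological coefficient of variation was 0.374. A call asked for a 2-fold change or more and an adjusted p (Benjamini-Hochberg, over all genes tested) below 0.05. On simulated counts for 10814 genes, 6 of 100 genes changed 2-fold and 60 of 100 changed 4-fold between lamellae and cap passed the adjusted p, beside 3 unchanged genes. No other genes were changed there, a far smaller share than the 27.3% called in the data. Recovery under the Benjamini-Hochberg adjustment depends on that share, so these rates do not give the recovery in the data. Named genes are, each way, the called gene without overlap that had the largest fold change, given 10 counts or more on average in both tissues, and the one without overlap with the largest difference in mean CPM. The 6 libraries differed from each other beyond sampling noise (lowest chi-square per degree of freedom 87.6) and are the biological replicates of the labels' protocols. The comparisons, gene sets and named genes were chosen with earlier results of these data known. Alternatives were other scalings, filters, thresholds and fits, DESeq2 1.42.0, limma 3.58.1 on log2(FPKM + 1) and log2(FPKM + 0.1), and leaving out each library.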

Additional observations from a re-analysis of the deposited data

How the results depend on the processing

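The 4 named genes kept their direction and their call in all 15 alternatives run for each, with log2 fold changes of 8.75 to 10.08 (gene 4207), 7.52 to 10.23 (gene 4568), -8.32 to -7.81 (gene 7202) and -5.38 to -4.93 (gene 11389). With all 32 libraries and a 2-fold threshold, the number of called genes was 2948, and 2950 to 3146 with other scalings, no filter or the DESeq2 test. It was 2663 and 2923 with limma on the FPKM table, which lists fewer genes, 3227 without the stage 3 stipe group, and 2596 without genes that had a fractional count. Leaving out 1 library gave 2352 to 2784 genes, with 1248 to 1477 higher and 1090 to 1429 lower. A 4-fold threshold left 1156 genes (666 higher, 490 lower), by its construction. The share of calls that were higher was 51.7% and became 69.5% with library size alone. With the replicate number as a block and only these 6 libraries, 3515 genes were called (1817 higher, 1698 lower), against 3266 without the block. The deviations of same-numbered libraries from their tissue means had correlations of 0.639, 0.655 and -0.117 across genes. Lamellae replicate 2 with cap replicate 1 gave -0.619, and lamellae replicate 1 with cap replicate 2 gave -0.741. The remaining differently numbered pairs lay between -0.125 and 0.198. The deviations of a gene cancel out within a tissue, so these correlations are not independent of each other. The large values of replicates 1 and 2, of both signs, can come from a single contrast between them. They therefore cannot tell whether libraries were paired by number. No source used here states a pairing, and the main fit did not use the numbers to pair the samples.

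The genes on in one tissue and near absent from the other were few and moved with the cut-offs: with 2 and 20 CPM there were 38 on in lamellae and 0 on in cap, and with 0.5 and 5 CPM 1 was on in cap. Leaving out 1 library, an alternative chosen after seeing the data, gave 20 to 46 on in lamellae and 2 to 4 on in cap; 46 was without cap replicate 1 and 4 without lamellae replicate 3. With a 4-fold margin, the lamellae were highest of the 11 groups in 204 and the cap lowest in 15 of the genes called higher, and the lamellae lowest in 14 and the cap highest in 0 of those called lower. Leaving out 1 library gave 310 to 322, 35 to 72, 55 to 74 and 4 to 16 for these at the 2-fold margin. The median derived length of genes called higher was 972 bases with a 4-fold threshold. For a gene with few counts in the lower tissue, counting error limits the size of the fold change.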

Other observations

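The numbers that the files give to genes were also used as an order, although the sources used here do not say what the numbering follows. Among genes called higher in lamellae whose next number was also tested, 301 of 1455 (20.7%) were followed by another gene called higher and 129 (8.87%) by a gene called lower. Among genes called lower, 265 of 1352 (19.6%) were followed by another called lower and 152 (11.2%) by one called higher. Over all 10322 such genes, the next was called higher in 14.3% and lower in 13.1%. In the order in which the files list the genes, the genes called higher were followed by another called higher in 15.3% and the genes called lower by another called lower in 14.7%, close to the 14.1% and 13.2% of all genes. No test was run on these shares, and whether neighbouring numbers share reads was not examined.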
